A study of Mus musculus with 10 samples.

Results

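The genes described here were 42 genes of mitosis and the G2/M part of the cell cycle, followed in GFP-positive cells from mouse intestine after virus-delivered gain or loss of R-spondin signalling. They were taken by symbol from a written list, with no rule on their values, but the list was chosen with earlier results of these data known. All 42 were among the 23969 gene symbols of the expression table, and all 42 were among the 11454 genes that passed a minimum of 1 FPKM (FPKM is a read density scaled by transcript length and library size) in at least 2 libraries. Every one of them was at 1 FPKM or more in each of the 8 libraries. The cells came from the proximal jejunum of Lgr5-eGFP-IRES-CreER mice, in which the Lgr5 locus drives a green fluorescent protein, and were sorted for that protein. All mice had received an adenovirus by intravenous injection. In the Rspo1 group the virus carried Rspo1, an R-spondin ligand (called Rspo GOF by the submitters, 3 libraries). In the LGR5-ECD group it carried the extracellular domain of the R-spondin receptor LGR5 (Rspo LOF, 3 libraries). In the Fc group it carried an Fc fragment (control, 2 libraries). The replicates are described as biological, with no animal, age, sex or time after injection given. Both control columns had names that give neither the sort nor the sample, and were read as the 2 GFP-positive Fc samples, so every comparison with Fc rests on that reading. The GFP-negative fraction of the control sort, 2 samples, was not analysed here.

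R-spondins bind LGR receptors and thereby strengthen Wnt signalling, on which the stem cells at the base of intestinal crypts depend. These stem cells divide often, and their daughters in the lower crypt, the transit-amplifying cells, divide faster still before they differentiate. Entry into mitosis is driven by cyclin-dependent kinase Cdk1 with cyclins A and B. The kinases Plk1, Aurka and Aurkb then build the spindle, the checkpoint proteins hold anaphase until every kinetochore is attached, and the anaphase-promoting complex with Cdc20 destroys cyclin B and securin to end mitosis. Most of these genes are transcribed late in the cycle through the MuvB complexes, with B-Myb and Foxm1, which act at promoters with the CHR motif TTTGAA and often CCAAT boxes, the site of NF-Y.

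Promoter entries from RefSeq (build GRCm38.p6, which is not the mm9 build named for the data) were found for 34 of the 42 genes, as 37 entries of 300 bases, 250 before and 50 after each transcription start. The motif TTTGAA was present on either strand in 28 of the 37 entries (75.7%), against 12.2% of 11054 promoters of the genes tested and 17.9% of 32851 promoters in the table. Within 50 bases on either side of the start it was present in 24 entries (64.9%), against 3.1% of the promoters of genes tested. CCAAT was present on either strand in 30 entries (81.1%), against 37.7% of the promoters of genes tested. The variant TTTAAA was present in 9 entries (24.3%), against 9.1%, and no TTTGAA hit overlapped a TTTAAA hit. The entries of Bub1, Cdc25b, Mad2l1, Nek2, Nuf2 and Pttg1 held neither 6-base motif in this window. A match of letters is a description of the sequence and does not show that a factor binds there. The stretches below run 5′ to 3′ from 100 bases before to 50 bases after the start, with TTTGAA and CCAAT in capitals on whichever strand they lie (read as TTCAAA or ATTGG on the other). They belong to Anln, which passed the test in one comparison, to Cdk1, Mki67 and Kif11, whose levels separated groups of libraries, to Ccnb2 and Ect2, whose Rspo1 and LGR5-ECD libraries overlapped, and to Mad2l1, which held neither motif.
Anln (chr9:22389157-22389306, minus strand): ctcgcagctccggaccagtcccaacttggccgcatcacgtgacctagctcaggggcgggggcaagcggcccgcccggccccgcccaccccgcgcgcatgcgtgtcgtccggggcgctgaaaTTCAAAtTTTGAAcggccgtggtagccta
Cdk1 (chr10:69352863-69353012, minus strand): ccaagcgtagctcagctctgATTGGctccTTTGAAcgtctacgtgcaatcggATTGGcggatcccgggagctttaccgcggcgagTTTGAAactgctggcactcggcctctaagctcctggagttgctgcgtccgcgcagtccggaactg
Mki67 (chr7:135716330-135716479, minus strand): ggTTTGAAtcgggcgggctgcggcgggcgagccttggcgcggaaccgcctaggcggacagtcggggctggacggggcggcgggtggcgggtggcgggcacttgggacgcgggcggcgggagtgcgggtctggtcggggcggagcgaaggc
Kif11 (chr19:37376282-37376431, plus strand): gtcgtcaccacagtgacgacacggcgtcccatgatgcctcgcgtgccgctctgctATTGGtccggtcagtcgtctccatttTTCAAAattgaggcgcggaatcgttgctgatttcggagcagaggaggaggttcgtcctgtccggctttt
Ccnb2 (chr9:70421505-70421654, minus strand): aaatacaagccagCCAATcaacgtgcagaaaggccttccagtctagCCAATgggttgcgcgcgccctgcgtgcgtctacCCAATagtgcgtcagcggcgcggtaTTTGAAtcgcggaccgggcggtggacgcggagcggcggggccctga
Ect2 (chr3:27153829-27153978, minus strand): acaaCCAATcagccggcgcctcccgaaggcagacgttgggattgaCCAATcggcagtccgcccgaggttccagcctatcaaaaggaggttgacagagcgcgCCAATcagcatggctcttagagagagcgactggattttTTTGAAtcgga
Mad2l1 (chr6:66535121-66535270, plus strand): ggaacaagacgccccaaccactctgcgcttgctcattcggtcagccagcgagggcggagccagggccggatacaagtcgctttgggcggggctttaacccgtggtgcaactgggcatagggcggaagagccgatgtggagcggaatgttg
Anln carries an inverted and a direct copy beside each other just downstream of its start, and Ect2 and Ccnb2 carry 3 CCAAT boxes each in the stretch shown. The motif was present both in genes with a negative difference between Rspo1 and LGR5-ECD, such as Anln, and in genes with a positive one, such as Ect2. Smc4, Ccna2, Kif20a, Incenp, Cdc25c, Aurkb, Foxm1 and Tpx2 had no entry in the table used.

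The sorted cells carried marks of crypt base stem cells and of enterocytes, at levels that differed between groups. Summed over 15 crypt base stem cell markers, the level was 2359 to 2553 FPKM in Rspo1 libraries, 245.1 to 623.3 FPKM in LGR5-ECD libraries, and 1411 and 683.2 FPKM in Fc libraries. Summed over 15 enterocyte markers it was 514.6 to 588.1 FPKM with Rspo1, 1417 to 1645 FPKM with LGR5-ECD, and 746.1 and 819.1 FPKM with Fc. The 12 immune markers summed to 5.41 to 22.98 FPKM and 13 mesenchymal, endothelial and red cell markers to 1.45 to 3.22 FPKM over all 8 libraries, with Cd3g, Cd8a, Col1a1 and Col1a2 at 0 in most or all of them. Fewest genes, 11485, were above 0 in LGR5-ECD replicate 3, and the other 7 libraries had 13417 to 14197. Read depths are not given with FPKM values and are unknown here. In bulk cells of this kind, fewer dividing cells and less RNA per dividing cell cannot be told apart.

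Levels of the 42 genes spanned a wide range, and the 2 highest genes were the same in the 3 groups. Ube2c, the ubiquitin-conjugating enzyme of the anaphase-promoting complex, had the highest median over the 8 libraries, 144.7 FPKM. Mki67, the gene of the Ki-67 protein that coats mitotic chromosomes, followed with 66.00 FPKM, and ranked second in each group. Plk1 (40.91 FPKM), Ncapd2 (38.26 FPKM), Racgap1 (36.53 FPKM), Foxm1 (34.71 FPKM) and Aurkb (34.45 FPKM) came next, and their ranges over the libraries overlapped. At the low end were Cdc25c (2.16 FPKM), Bub1 (2.29 FPKM), Ndc80 (2.32 FPKM), Nuf2 (3.01 FPKM) and Smc2 (3.14 FPKM). The most even gene was Prc1, with a highest library 1.41 times its lowest, and the least even was Kif4, with 3.71 times.

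**Figure D1:**
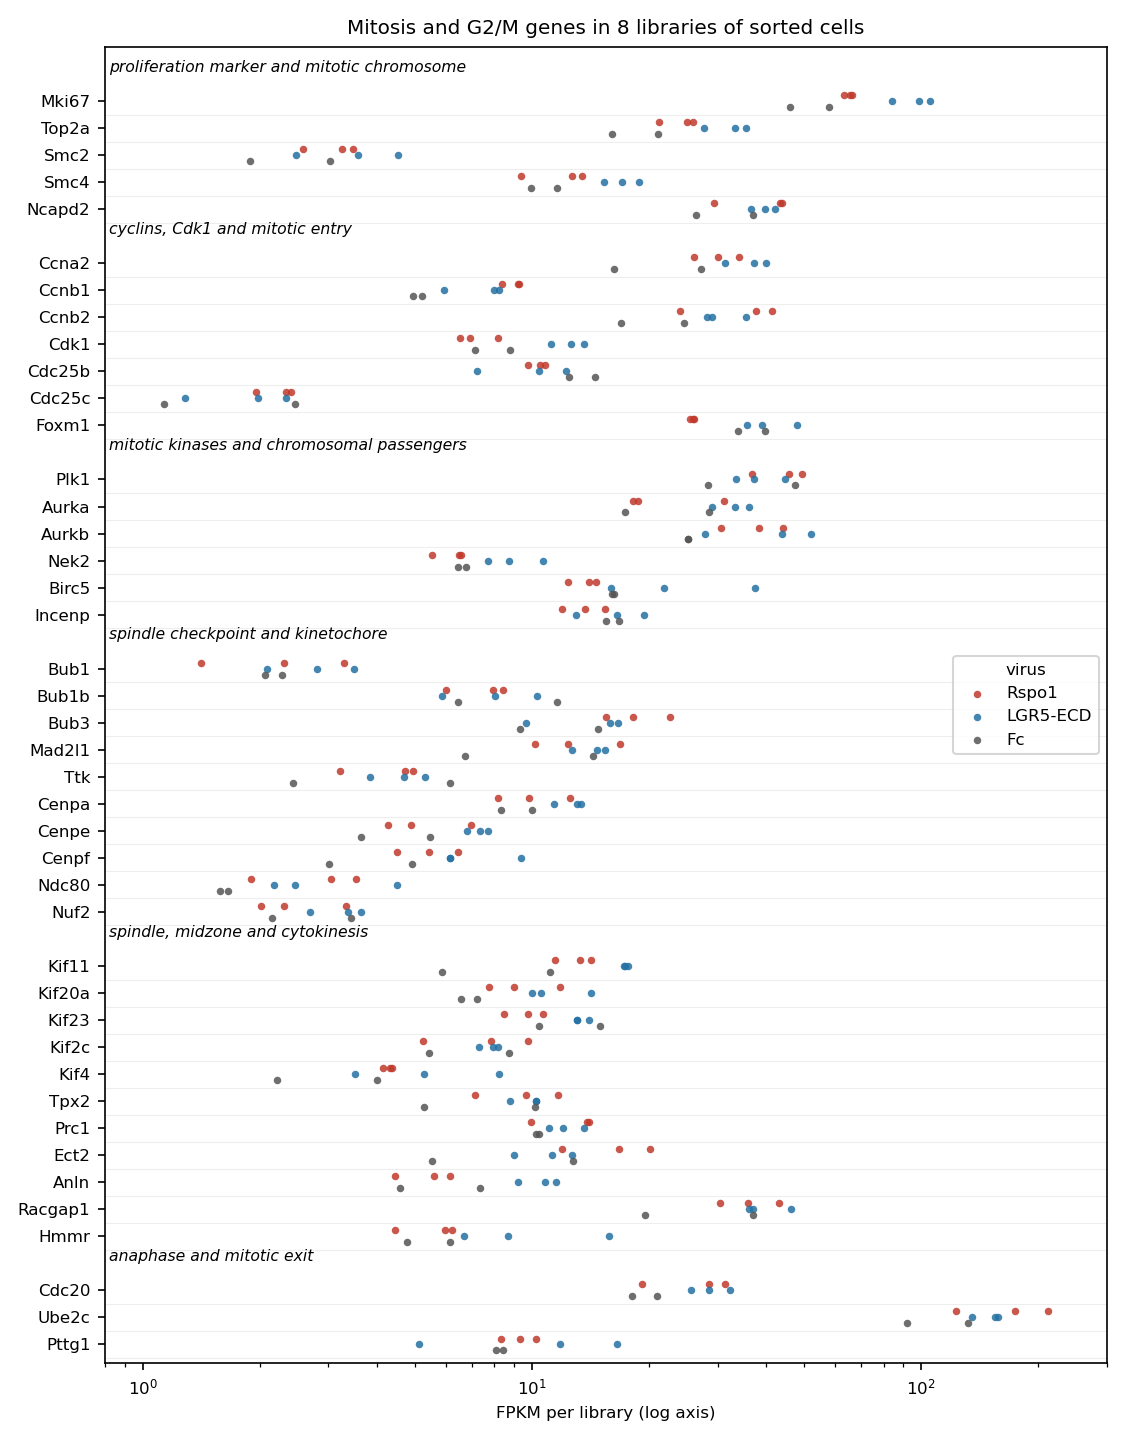
FPKM of each of the 42 mitosis and G2/M genes (rows, grouped by role) in each library, on a log axis; each point is 1 library of the Rspo1, LGR5-ECD or Fc group. Mki67, Anln and Cdk1 have all 3 LGR5-ECD points to the right of the other 5, and Foxm1 has all 3 Rspo1 points to the left.

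Summed over the 42 genes, the level was 670.8, 841.1 and 909.8 FPKM in Rspo1 libraries, 895.5, 930.0 and 892.5 FPKM in LGR5-ECD libraries, and 744.7 and 560.7 FPKM in Fc libraries. The sum averaged 807 ± 123 FPKM with Rspo1 (SD, n = 3), 906 ± 20.8 FPKM with LGR5-ECD (SD, n = 3) and 653 ± 130 FPKM with Fc (SD, n = 2). The LGR5-ECD libraries lay close together and above both Fc libraries, whereas the Rspo1 libraries reached into the ranges of both other groups. As a share of all FPKM in a library, the 42 genes made up 0.280% to 0.343% in Rspo1, 0.352% to 0.393% in LGR5-ECD, and 0.328% and 0.296% in Fc. By this share the LGR5-ECD libraries were above the other 5. The group mean was highest in Rspo1 for 8 genes, in LGR5-ECD for 32 and in Fc for 2, and lowest in Rspo1 for 11, in LGR5-ECD for 1 and in Fc for 30. These orders were not counted over all genes. Of all genes tested, 62.9% had a log2 change above 0 for Rspo1 minus Fc. The share was 54.2% for LGR5-ECD minus Fc and 57.7% for Rspo1 minus LGR5-ECD. Single libraries carried part of the order of the 42 genes. Fc replicate 2 held the lowest value of 23 of the 42 genes, and Rspo1 replicate 1 that of 10. Fc replicate 2 was also low over all genes tested, with a median log2 deviation from each gene's mean of -0.18, against -0.46 over the 42 genes. In Rspo1 replicate 1 these medians were 0.0068 and -0.23.

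**Figure D2:**
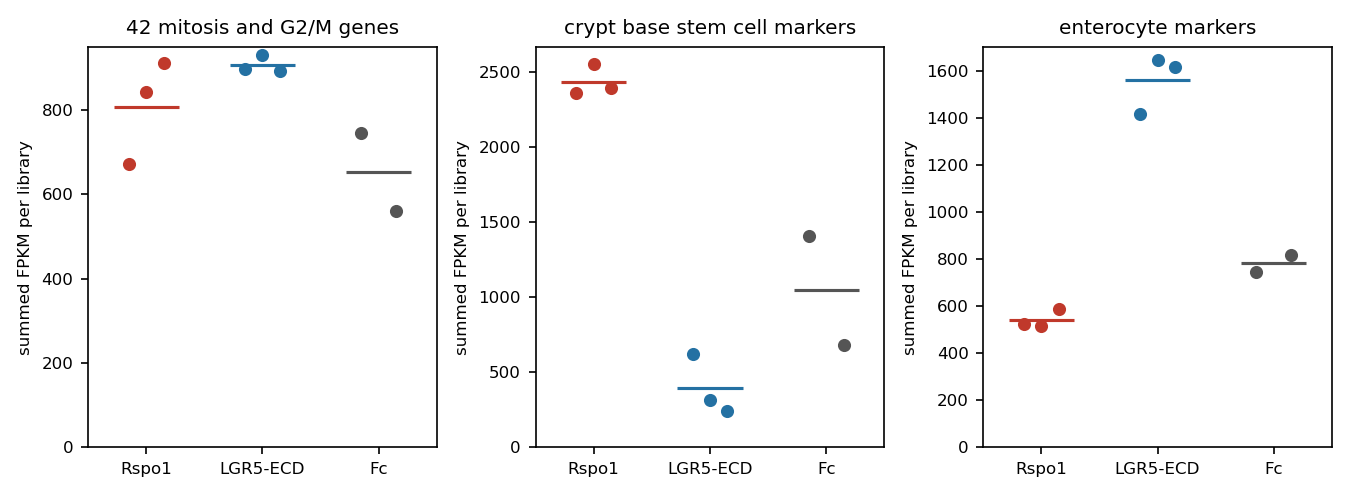
Summed FPKM per library of the 42 mitosis and G2/M genes, of 15 crypt base stem cell markers and of 15 enterocyte markers; points are libraries and lines are group means. The stem cell and enterocyte sums separate the Rspo1 from the LGR5-ECD libraries, while the sums of the mitosis and G2/M genes, 670.8 to 909.8 FPKM in Rspo1 libraries and 892.5 to 930.0 FPKM in LGR5-ECD libraries, overlap.

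Between the treated groups, 1 gene of the 42 passed the test. Anln, which encodes anillin, the scaffold of the contractile ring in cytokinesis, was lower in Rspo1 than in LGR5-ECD cells. The test was limma on log2(FPKM + 1) values over all 8 libraries, with Benjamini-Hochberg adjustment over all genes tested and a threshold of 0.05; on this scale the change of low genes is understated. No member was called higher in Rspo1, where 4.92% of all genes were, and 1 of 42 was called lower, where 3.54% of all genes were. At an unadjusted p under 0.05 there were 0 higher (13.9% of all genes) and 8 lower (8.93% of all genes). The 8 were Anln, Birc5, Cdk1, Foxm1, Hmmr, Mki67, Nek2 and Smc4. All 3 Rspo1 libraries were below all 3 LGR5-ECD libraries in 11 members (26.2% of them), a pattern that 12.1% of all genes tested had, and above them in 1 (Ccnb1), against 18.9% of all genes. The median log2 change, Rspo1 minus LGR5-ECD, was -0.18 over the 42 genes and 0.08 over all genes tested, and the values were below 0 for 33 of the 42 and above 0 for 9, whereas 57.7% of all genes were above 0. No member differed by 2-fold on this scale, as 6.2% of all genes did upward and 3.9% downward. The 95% interval of the change lay within 1 log2 unit of 0 on both sides for 35 of the 42.

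Anln had 4.44, 5.61 and 6.16 FPKM in Rspo1 libraries, against 9.21, 10.78 and 11.55 FPKM in LGR5-ECD libraries; the Fc libraries had 7.33 and 4.59 FPKM. The LGR5-ECD libraries were the 3 highest of the 8, and the Rspo1 and Fc libraries overlapped. Its log2 change, Rspo1 minus LGR5-ECD, was -0.85 (SE 0.23, adjusted p = 0.0495 by limma). The call sits at the threshold: over 16 settings, which include leaving out each library, the adjusted p ran between 0.0203 and 0.172 and passed in 7, and without any one of the 6 Rspo1 or LGR5-ECD libraries it did not pass. The log2 change itself stayed between -0.95 and -0.74.

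Against Fc, Rspo1 cells had no member past the threshold in either direction, where 0.672% of all genes were called higher and 0.576% lower. At an unadjusted p under 0.05 by limma, 5 members were higher (Ccnb1, Ccnb2, Ect2, Kif11 and Ube2c; 12.0% of all genes) and 1 was lower (Foxm1; 5.09% of all genes). Rspo1 libraries were all above both Fc libraries in 9 members, 21.4% of them against 26.2% of all genes tested, and all below in 4, 9.52% against 12.0%. The median log2 change, Rspo1 minus Fc, was 0.25 over the 42 genes and 0.16 over all genes. It was above 0 for 31 members, 73.8% of them against 62.9% of all genes. No member differed by 2-fold on this scale, as 3.95% of all genes did upward and 2.63% downward. The calls over all genes varied with the libraries: without Fc replicate 2 there were 11 higher and 13 lower, against 77 and 66 with all libraries and 362 and 94 without Fc replicate 1.

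Against the same Fc libraries, LGR5-ECD cells also had no member past the threshold, where 0.445% of all genes were called higher and 0.271% lower. At an unadjusted p under 0.05 by limma, 12 members were higher, 28.6% of them against 10.3% of all genes, and 0 were lower, against 6.57%. The 12 were Anln, Aurkb, Ccna2, Cdc20, Cdk1, Cenpf, Hmmr, Kif11, Kif20a, Mki67, Smc4 and Top2a. All 3 LGR5-ECD libraries were above both Fc libraries in 21 of the 42 members, against 18.2% of all genes tested, and below in 1 (Cdc25b), against 12.7% of all genes. The median log2 change, LGR5-ECD minus Fc, was 0.44 over the 42 genes and 0.05 over all genes. It was above 0 for 39 members and below 0 for Bub1b, Cdc25b and Incenp, whereas 54.2% of all genes were above 0. Kif11 was the only member at 2-fold or more on this scale, where 3.34% of all genes were higher by that much and 3.2% lower. The Fc libraries differed between themselves in these genes: 33 of the 42 (78.6%) were higher in Fc replicate 1 than in Fc replicate 2, with a median difference of 0.31 log2, against 66.4% and 0.22 log2 over all genes tested. Over all genes, 0 were called by limma without Fc replicate 2 (1230 at an unadjusted p under 0.05), and 153 higher and 22 lower without Fc replicate 1, against 51 and 31 with all libraries. Without Fc replicate 1 the members' median, LGR5-ECD minus Fc, was 0.62, and without Fc replicate 2 it was 0.34.

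**Figure D3:**
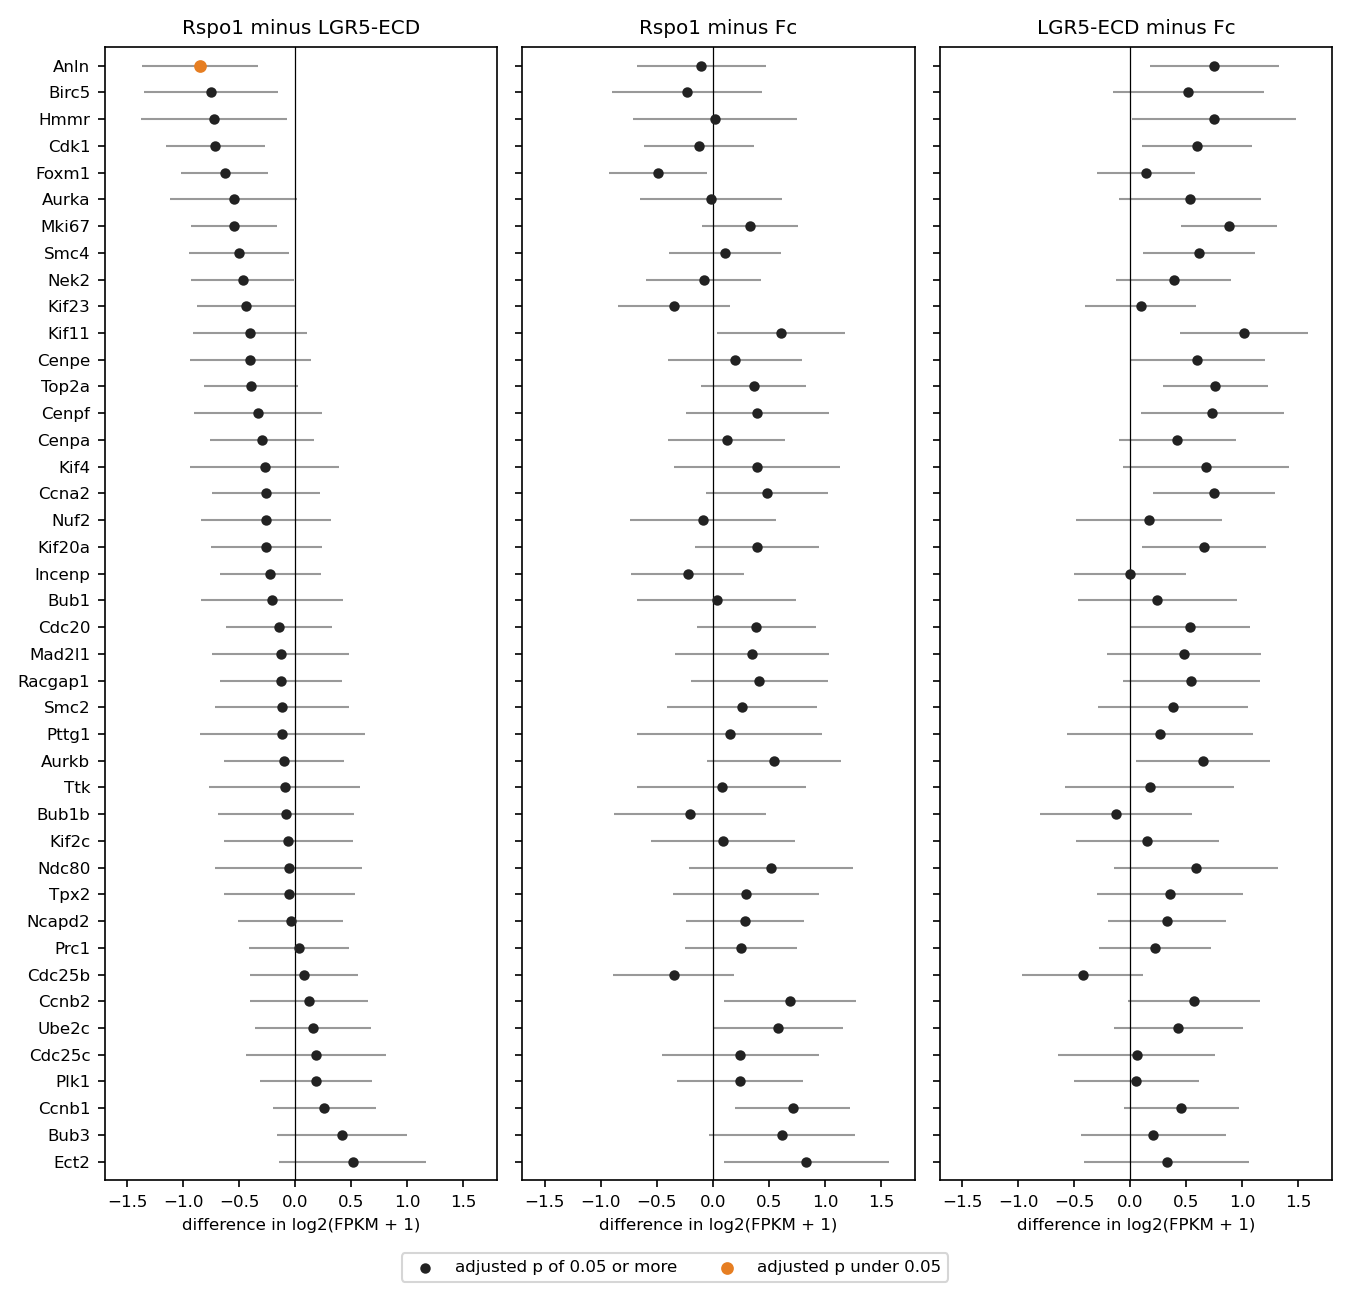
Fitted difference in log2(FPKM + 1) of each of the 42 genes in the 3 comparisons, with 95% intervals, ordered by the Rspo1 minus LGR5-ECD difference; the 2 comparisons with Fc share the same 2 Fc libraries. The one filled orange point is Anln at -0.85; in the LGR5-ECD minus Fc panel 39 of 42 points lie above 0.

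Mki67 and the genes of mitotic chromosome structure showed the same order in most members, with LGR5-ECD above the other groups. Mki67 had 63.4, 65.5 and 66.5 FPKM with Rspo1, 98.6, 83.9 and 105.4 FPKM with LGR5-ECD, and 57.8 and 45.99 FPKM with Fc. The 3 groups did not overlap in this gene. Its log2 change was -0.55 for Rspo1 minus LGR5-ECD (SE 0.17, adjusted p = 0.0819), 0.33 for Rspo1 minus Fc (SE 0.19, adjusted p = 0.410) and 0.88 for LGR5-ECD minus Fc (SE 0.19, adjusted p = 0.0736), all by limma. Top2a, the topoisomerase that untangles sister chromatids, had 21.21, 25.03 and 25.99 FPKM with Rspo1, 33.14, 27.6 and 35.36 FPKM with LGR5-ECD, and 21.02 and 16.1 FPKM with Fc. Again no library of one group reached into another, although Rspo1 replicate 1 was just above Fc replicate 1. Its log2 change was 0.76 for LGR5-ECD minus Fc (SE 0.21, adjusted p = 0.133 by limma). Smc4, a core subunit of condensin, had 9.37, 12.6 and 13.4 FPKM with Rspo1, 18.8, 15.3 and 17.1 FPKM with LGR5-ECD, and 11.6 and 9.97 FPKM with Fc. The LGR5-ECD libraries were the 3 highest. The other condensin subunits, Smc2 and Ncapd2, overlapped between groups, with log2 changes of -0.12 and -0.04 for Rspo1 minus LGR5-ECD; the sign turned without LGR5-ECD replicate 1 in Smc2 (0.035) and without Rspo1 replicate 1 in Ncapd2 (0.15).

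Among the genes of mitotic entry, Cdk1 and Foxm1 had the lowest values of Rspo1 minus LGR5-ECD, and both cyclin B genes had positive ones. Cdk1, the kinase that starts mitosis, had 6.53, 6.95 and 8.16 FPKM with Rspo1, 11.2, 13.6 and 12.6 FPKM with LGR5-ECD, and 7.12 and 8.76 FPKM with Fc. All 3 LGR5-ECD libraries were above the other 5, and the Rspo1 and Fc libraries overlapped. The log2 change, Rspo1 minus LGR5-ECD, was -0.71 (SE 0.20, adjusted p = 0.0524 by limma), and it passed the threshold in 6 of 16 settings. Foxm1, the transcription factor of the G2/M programme, had 26.1, 25.9 and 25.4 FPKM with Rspo1, 35.6, 39.1 and 47.8 FPKM with LGR5-ECD, and 39.8 and 33.8 FPKM with Fc. Here the Rspo1 libraries were the 3 lowest and lay within 1 FPKM of each other, and the LGR5-ECD and Fc libraries overlapped. Its log2 change was -0.63 for Rspo1 minus LGR5-ECD (SE 0.18, adjusted p = 0.0526) and -0.49 for Rspo1 minus Fc (SE 0.20, adjusted p = 0.242), both by limma; the first passed in 6 of 16 settings.

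The cyclin genes differed in direction. The log2 change, Rspo1 minus LGR5-ECD, was 0.26 for Ccnb1, 0.12 for Ccnb2 and -0.26 for Ccna2, and no cyclin gene passed the test. In Ccnb2 the sign turned without Rspo1 replicate 3 (-0.026). Ccnb1, cyclin B1, had 8.38, 9.24 and 9.22 FPKM with Rspo1, 5.94, 7.97 and 8.25 FPKM with LGR5-ECD, and 5.21 and 4.94 FPKM with Fc. It was the one member whose Rspo1 libraries were all above the LGR5-ECD libraries, and the 2 Fc libraries were the lowest. Its log2 change, Rspo1 minus Fc, was 0.71 (SE 0.23, adjusted p = 0.158 by limma). Ccnb2, cyclin B2, had 24.04, 37.67 and 41.37 FPKM with Rspo1, 29.04, 35.39 and 28.09 FPKM with LGR5-ECD, and 24.52 and 16.97 FPKM with Fc. Rspo1 held both the highest library and one below the higher Fc library. Ccna2, cyclin A2, had 26.07, 30.01 and 34.03 FPKM with Rspo1, 37.3, 39.9 and 31.4 FPKM with LGR5-ECD, and 27.2 and 16.3 FPKM with Fc, and its log2 change, LGR5-ECD minus Fc, was 0.75 (SE 0.25, adjusted p = 0.176 by limma). The phosphatase genes that remove the brake on Cdk1 were close between treated groups. Cdc25b had 9.77, 10.82 and 10.48 FPKM with Rspo1, 12.24, 10.43 and 7.24 FPKM with LGR5-ECD, and 14.51 and 12.47 FPKM with Fc. It was the only member in which both Fc libraries were above all 6 treated ones. Cdc25c had 1.95, 2.41 and 2.33 FPKM with Rspo1, 2.34, 1.98 and 1.28 FPKM with LGR5-ECD, and 1.14 and 2.47 FPKM with Fc, which held both its lowest and its highest library.

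None of the mitotic kinases and passengers passed the test, and their order of groups differed. Plk1, which drives centrosome maturation and mitotic entry, had 36.7, 45.6 and 49.4 FPKM with Rspo1, 37.1, 44.7 and 33.4 FPKM with LGR5-ECD, and 47.4 and 28.4 FPKM with Fc, so that the Fc libraries nearly spanned the treated ones. Its log2 change, Rspo1 minus LGR5-ECD, was 0.19 with a 95% interval of -0.31 to 0.69. Aurka, the spindle pole kinase, had 18.2, 18.7 and 31.2 FPKM with Rspo1, 28.95, 33.28 and 36.13 FPKM with LGR5-ECD, and 28.5 and 17.3 FPKM with Fc. Aurka in Rspo1 replicate 3 was inside the LGR5-ECD range and in the other 2 Rspo1 libraries far below it, and the log2 change was -0.55 (SE 0.26, adjusted p = 0.230 by limma). Aurkb, the kinase of the chromosomal passenger complex, had 30.65, 38.26 and 44.01 FPKM with Rspo1, 43.98, 52.17 and 27.81 FPKM with LGR5-ECD, and 25.22 and 25.15 FPKM with Fc. Both Fc libraries were below all treated ones, and the treated groups overlapped.

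Birc5, which encodes survivin, the passenger subunit that brings Aurkb to the centromere, had 12.38, 13.98 and 14.59 FPKM with Rspo1, 21.86, 15.98 and 37.49 FPKM with LGR5-ECD, and 16.09 and 16.29 FPKM with Fc. The Rspo1 libraries were the 3 lowest, and much of the distance to LGR5-ECD came from LGR5-ECD replicate 3, the library with fewest genes detected. Its log2 change, Rspo1 minus LGR5-ECD, was -0.75 (SE 0.27, adjusted p = 0.123 by limma) and ran between -1.02 and -0.43 when libraries were left out; without LGR5-ECD replicate 2 it passed, with an adjusted p of 0.0463. Incenp, the scaffold of the same complex, had 13.68, 15.44 and 11.96 FPKM with Rspo1, 12.97, 16.5 and 19.37 FPKM with LGR5-ECD, and 15.46 and 16.76 FPKM with Fc. In Incenp the differences were small, with a log2 change, LGR5-ECD minus Fc, of -0.0019 (SE 0.23). Nek2, a centrosome kinase, ran between 5.53 and 6.58 FPKM with Rspo1, between 7.70 and 10.67 FPKM with LGR5-ECD, and at 6.77 and 6.46 FPKM with Fc.

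The 10 checkpoint and kinetochore genes all overlapped between the Rspo1 and LGR5-ECD libraries. Of all genes tested, 18.9% had all Rspo1 libraries above all LGR5-ECD libraries and 12.1% had them below. The median log2 change of the 10 was -0.17 for Rspo1 minus LGR5-ECD, 0.16 for Rspo1 minus Fc and 0.33 for LGR5-ECD minus Fc. Bub3, the checkpoint protein that docks Bub1 and BubR1 at kinetochores, had 15.5, 18.2 and 22.6 FPKM with Rspo1, 15.9, 16.6 and 9.66 FPKM with LGR5-ECD, and 14.8 and 9.32 FPKM with Fc. Bub3 in Rspo1 replicate 1 lay inside the LGR5-ECD range, and the log2 change, Rspo1 minus LGR5-ECD, was 0.41 (SE 0.26, adjusted p = 0.389 by limma). Mad2l1, the Cdc20 inhibitor Mad2, had 12.4, 10.2 and 16.9 FPKM with Rspo1, 12.7, 15.4 and 14.7 FPKM with LGR5-ECD, and 14.4 and 6.75 FPKM with Fc, so that 1 Fc library was the lowest of the 8 and the other was among the treated ones. Bub1b, which encodes BubR1, had 6.003, 8.42 and 7.96 FPKM with Rspo1, 8.04, 10.3 and 5.86 FPKM with LGR5-ECD, and 11.6 and 6.47 FPKM with Fc. Bub1b was highest in 1 Fc library and lowest in 1 LGR5-ECD library. Cenpa, the histone H3 variant that marks centromeres, had 8.19, 9.82 and 12.54 FPKM with Rspo1, 13.04, 13.35 and 11.39 FPKM with LGR5-ECD, and 10.01 and 8.35 FPKM with Fc. All LGR5-ECD libraries were above both Fc libraries in Cenpa, in the kinetochore motor gene Cenpe, in Cenpf and in Ndc80, a microtubule-binding kinetochore subunit. This pattern was present in 18.2% of all genes tested. Cenpf, a kinetochore protein, had 4.51, 6.45 and 5.44 FPKM with Rspo1, 6.16, 6.15 and 9.36 FPKM with LGR5-ECD, and 4.91 and 3.02 FPKM with Fc. The remaining genes of the group, Bub1, the checkpoint kinase gene Ttk, and Nuf2, a partner of Ndc80, had log2 changes between -0.26 and -0.09 for Rspo1 minus LGR5-ECD. The sign turned without Rspo1 replicate 1 in Bub1 (0.0063) and without Rspo1 replicate 3 in Ttk (0.061).

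The spindle and cytokinesis genes held both ends of the comparison between treated groups, Anln at -0.85 and Ect2 at 0.51. Kif11, the motor that pushes spindle poles apart, had 11.4, 14.2 and 13.3 FPKM with Rspo1, 17.7, 17.3 and 17.3 FPKM with LGR5-ECD, and 11.2 and 5.86 FPKM with Fc. The 3 groups did not overlap, and the LGR5-ECD libraries were within 1 FPKM of each other. Its log2 change was 1.01 for LGR5-ECD minus Fc (SE 0.26, adjusted p = 0.104) and 0.61 for Rspo1 minus Fc (SE 0.26, adjusted p = 0.262), both by limma. Without Fc replicate 1, which leaves 1 Fc library, the log2 changes of Kif11 were 1.43 and 1.02. Over all left-out libraries they ran between 0.60 and 1.43 for LGR5-ECD minus Fc, and between 0.20 and 1.02 for Rspo1 minus Fc. Ect2, the exchange factor that activates RhoA for the cleavage furrow, had 11.96, 16.71 and 20.11 FPKM with Rspo1, 12.7, 11.3 and 9.01 FPKM with LGR5-ECD, and 12.7 and 5.55 FPKM with Fc. Rspo1 replicates 2 and 3 were above all other libraries, and Rspo1 replicate 1 was among them. The log2 change was 0.51 for Rspo1 minus LGR5-ECD (SE 0.30, adjusted p = 0.348) and 0.83 for Rspo1 minus Fc (SE 0.33, adjusted p = 0.240), both by limma.

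Hmmr, a spindle assembly factor, had 4.45, 6.24 and 5.99 FPKM with Rspo1, 6.71, 8.68 and 15.7 FPKM with LGR5-ECD, and 6.14 and 4.78 FPKM with Fc. The LGR5-ECD libraries were the 3 highest, with the widest spread and the top in replicate 3; the log2 change, Rspo1 minus LGR5-ECD, was -0.73 (SE 0.30, adjusted p = 0.170 by limma). Kif23, the motor of the centralspindlin complex, had 9.79, 10.68 and 8.46 FPKM with Rspo1, 13.03, 13.07 and 13.99 FPKM with LGR5-ECD, and 10.4 and 14.9 FPKM with Fc. Its partner Racgap1 had 30.33, 43.02 and 35.92 FPKM with Rspo1, 36.9, 46.4 and 36.1 FPKM with LGR5-ECD, and 36.9 and 19.5 FPKM with Fc. In Kif23 the Rspo1 and LGR5-ECD libraries were apart, and in Racgap1 they overlapped. Kif20a, a late mitotic motor, had 7.75, 11.8 and 8.98 FPKM with Rspo1, 9.99, 10.5 and 14.1 FPKM with LGR5-ECD, and 6.57 and 7.23 FPKM with Fc, with both Fc libraries below all treated ones. Kif4, a chromosome-bound motor, had 4.33, 4.13 and 4.37 FPKM with Rspo1, 8.22, 5.27 and 3.51 FPKM with LGR5-ECD, and 4.01 and 2.21 FPKM with Fc, so that LGR5-ECD covered most of the range. For Kif2c, a microtubule depolymerase, Tpx2, the activator of Aurka, and Prc1, which bundles midzone microtubules, the log2 changes, Rspo1 minus LGR5-ECD, were -0.06, -0.05 and 0.03. Each of these signs turned when 1 library was left out, with ranges over all settings of -0.24 to 0.15 for Kif2c, -0.20 to 0.12 for Tpx2 and -0.047 to 0.18 for Prc1.

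The 3 genes of anaphase and mitotic exit overlapped between the treated groups. Cdc20, the activator of the anaphase-promoting complex, had 19.2, 31.4 and 28.5 FPKM with Rspo1, 25.6, 32.2 and 28.6 FPKM with LGR5-ECD, and 21.005 and 18.07 FPKM with Fc. Ube2c had 123.1, 174.1 and 212.0 FPKM with Rspo1, 154.7, 157.3 and 134.7 FPKM with LGR5-ECD, and 131.5 and 92.2 FPKM with Fc. In both genes Rspo1 replicate 1 was below the higher Fc library, and the other Rspo1 libraries were within or above the LGR5-ECD range. The log2 change of Ube2c, Rspo1 minus Fc, was 0.59 (SE 0.26, adjusted p = 0.287 by limma). Pttg1, which encodes securin, the inhibitor of separase, had 10.3, 9.31 and 8.32 FPKM with Rspo1, 11.8, 16.6 and 5.12 FPKM with LGR5-ECD, and 8.44 and 8.07 FPKM with Fc; both the highest and the lowest library were LGR5-ECD.

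The log2 changes of the members ran from -0.85 to 0.51 for Rspo1 minus LGR5-ECD, from -0.49 to 0.83 for Rspo1 minus Fc, and from -0.43 to 1.01 for LGR5-ECD minus Fc. The 95% interval lay within 1 log2 unit of 0 on both sides for 29 members in Rspo1 minus Fc and for 17 in LGR5-ECD minus Fc. For the other members a change of 2-fold on this scale was not outside the interval. Set beside the curve of all genes tested, the members as a group were shifted downward in the first comparison and upward in the third.

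**Figure D4:**
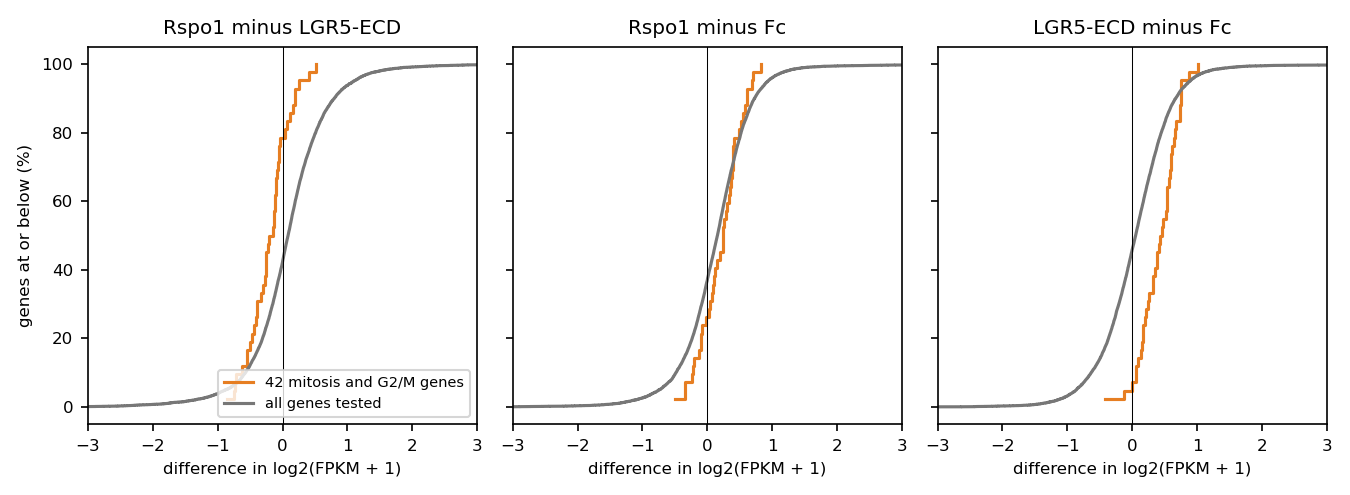
Cumulative share of genes (%) at or below each fitted difference in log2(FPKM + 1), for the 42 mitosis and G2/M genes and for all 11454 genes tested, in the 3 comparisons. The curve of the 42 genes lies left of that of all genes for Rspo1 minus LGR5-ECD (medians -0.18 and 0.08) and right of it for LGR5-ECD minus Fc (medians 0.44 and 0.05).

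Further genes of the division machinery gave few calls. Of all genes tested, 4.92% were called higher and 3.54% lower in Rspo1 against LGR5-ECD. Against Fc these shares were 0.672% and 0.576% for Rspo1, and 0.445% and 0.271% for LGR5-ECD. With shares this low, few calls against Fc say little about lists of this size. Among 21 other mitotic kinases and entry regulators, 35 other spindle and cytokinesis genes, 18 other condensin and cohesin genes and 16 genes of the anaphase-promoting complex, 0 passed in any of the 3 comparisons. Among 37 other kinetochore, centromere and checkpoint genes, 1 passed. This was Sgol2, shugoshin 2, which protects centromeric cohesin, with 4.17 ± 0.483 FPKM with Rspo1 (SD, n = 3), 4.17 ± 0.596 FPKM with LGR5-ECD (SD, n = 3) and 0.987 ± 0.0991 FPKM with Fc (SD, n = 2). It rose by 1.38 log2 in Rspo1 relative to Fc (adjusted p = 0.0351 by limma) and by 1.37 log2 in LGR5-ECD relative to the same Fc libraries (adjusted p = 0.0476 by limma). With the alternatives and left-out libraries counted, Sgol2 passed in 7 of 14 settings for Rspo1 against Fc, with adjusted p-values of 0.0195 to 0.191, and in 2 of 14 for LGR5-ECD against Fc, with adjusted p-values of 0.0384 to 0.219, all by limma. Medians of these lists, Rspo1 minus LGR5-ECD, were -0.04 for the kinases, -0.20 for the kinetochore genes, -0.0032 for the spindle genes, -0.07 for condensin and cohesin and 0.22 for the anaphase-promoting complex.

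A few S phase genes and inhibitors of the cycle passed in the comparison of the treated groups. Of 46 DNA replication and S phase genes, 3 fell in Rspo1 relative to LGR5-ECD (6.52%, against 3.54% of all genes) and 0 rose (against 4.92%), with a median of -0.29. E2f2, an E2F activator, averaged 1.98 ± 0.328 FPKM with Rspo1 and 10.1 ± 2.32 FPKM with LGR5-ECD (SD, n = 3 each) and fell by 1.88 log2 (adjusted p = 0.00129 by limma). E2f8, an atypical E2F repressor, averaged 16.9 ± 1.84 FPKM with Rspo1 and 45.4 ± 4.04 FPKM with LGR5-ECD and fell by 1.37 log2 (adjusted p = 0.00166 by limma). Rrm2, the regulatory subunit of ribonucleotide reductase, fell by 1.40 log2 (adjusted p = 0.0118 by limma). E2f2 and E2f8 passed in all 16 settings and Rrm2 in 15, the exception being without Rspo1 replicate 2 (adjusted p = 0.0628 by limma). Of 16 genes of cell cycle exit and CDK inhibition, 2 rose and 2 fell, 12.5% in each direction. Cdkn1a, the p21 inhibitor of cyclin-dependent kinases, had 6.65, 4.43 and 6.76 FPKM with Rspo1, 25.5, 36.8 and 43.2 FPKM with LGR5-ECD, and 16.6 and 23.1 FPKM with Fc. The 3 groups did not overlap, and Cdkn1a fell by 2.37 log2 in Rspo1 relative to LGR5-ECD (adjusted p = 0.000435 by limma) and had a log2 change of -1.59 relative to Fc (adjusted p = 0.0292 by limma). The first passed in all 16 settings and the second in 10 of 15, not without Fc replicate 2, without any 1 of the Rspo1 libraries or without a filter. For LGR5-ECD minus Fc, Cdkn1a had a log2 change of 0.78 (adjusted p = 0.206 by limma) and passed in 0 of 15 settings. Cdkn2b, the p15 inhibitor, fell by 1.96 log2 in Rspo1 relative to LGR5-ECD (adjusted p = 0.00242), while the antiproliferative genes Btg2 and Ccng2 rose by 0.93 log2 (adjusted p = 0.0175) and 1.37 log2 (adjusted p = 0.0328), all by limma. Cdkn2b averaged 0.226 ± 0.126 FPKM with Rspo1, under 1 FPKM, and 3.82 ± 0.898 FPKM with LGR5-ECD (SD, n = 3 each). Ccng2 averaged 4.52 ± 0.662 FPKM with Rspo1 and 1.27 ± 0.938 FPKM with LGR5-ECD (SD, n = 3 each). Cdkn2b passed in 15 of 15 settings, Btg2 in 10 of 16 and Ccng2 in 8 of 15. Cdkn2b and Ccng2 were not tested with the filter at 5 FPKM. Btg2 and Ccng2 each missed the threshold without LGR5-ECD replicate 2 and without any 1 of the Rspo1 libraries. Btg2 also missed it without LGR5-ECD replicate 1.

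The cell type markers, in lists chosen with earlier results of these data known, gave many calls. In Rspo1 relative to LGR5-ECD, 4.92% of all genes tested rose and 3.54% fell. In Rspo1 relative to LGR5-ECD, 14 of 15 stem cell markers of the crypt base rose and 0 fell, 13 of 15 enterocyte markers fell and 0 rose, and 4 of 9 goblet cell markers fell. Over all settings these counts were 13 to 14, 9 to 13 and 1 to 5. In Rspo1 relative to Fc, 3 stem cell markers rose (0.672% of all genes did) and 4 enterocyte markers fell (0.576% of all genes). In LGR5-ECD relative to Fc, 1 stem cell marker fell (0.271% of all genes did) and 3 enterocyte markers rose (0.445% of all genes). Without Fc replicate 2 none of these markers passed in either comparison with Fc, and the same held for LGR5-ECD against Fc without LGR5-ECD replicate 2. Without any 1 of the Rspo1 libraries, 0 stem cell markers and 2 enterocyte markers passed in Rspo1 against Fc. Lgr5 had 96.5, 112.7 and 100.2 FPKM with Rspo1, 8.31, 2.84 and 4.28 FPKM with LGR5-ECD, and 40.62 and 22.02 FPKM with Fc. Its calls against Fc held in 9 of 15 settings for Rspo1 and in 6 of 15 for LGR5-ECD. The goblet cell marker Spink4 rose against Fc in both treated groups, in 9 of 15 settings for Rspo1 and 4 of 15 for LGR5-ECD. Of 8 Paneth cell markers, 5 rose in each treated group relative to Fc; without Fc replicate 2 it was 1 in Rspo1 and 0 in LGR5-ECD, and without Fc replicate 1 it was 7 and 8. The 8 markers summed to 1494 to 2602 FPKM with Rspo1, 2043 to 4447 FPKM with LGR5-ECD, and 571.6 and 18.9 FPKM with Fc. Levels of these cell type markers differed between the same groups, and their part in the levels of the mitosis and G2/M genes was not tested.

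Some values carry a limit of counting. The exons of Ccna2, Cdc20, Cdc25b, Cdc25c, Kif20a, Kif4, Prc1 and Ube2c share bases with a protein-coding gene on the other strand, and the strand setting of the counting is not given in the sources used here, so reads of the pair cannot be told apart if strand was ignored. Foxm1 shares exon bases with the protein-coding genes Tex52 and Gm44596 on its own strand, and a strand setting would not tell those reads apart. Ccnb1, Ccnb2 and Kif4 have pseudogenes named after them that may share reads.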

How the data were processed

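Gene expression was measured by RNA sequencing of sorted cells. The authors deposited FPKM values for 8 libraries in 1 table. The submitters' processing notes name the build mm9 and the tools Cufflinks, TopHat, DESeq2 and HTSeq. Their versions and roles, the annotation and strandedness were not given in the sources used. Genes are named by symbol.

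Of 24510 table entries, 27 with a date for a symbol and 391 identical repeats were dropped, and 89 symbols on several entries were summed; none of the 42 genes was among these. A gene was kept if 2 libraries or more had 1 FPKM or more. The log2(FPKM + 1) values were fitted with limma 3.58.1 in R 4.3.3 (group means, all 8 libraries, trend), with two-sided tests and Benjamini-Hochberg adjustment over 11454 genes. Low values did not fall on whole-read steps (25.6% to 35.5% of ratios on steps within 0.04 log2), so no count test was run and depth is unknown. On simulated data with 200 changed genes, 26% (Rspo1 against LGR5-ECD), 24% (Rspo1 against Fc) and 17% (LGR5-ECD against Fc) of changes of 1 log2 were recovered, and 85%, 74% and 75% of changes of 2 log2. The simulated noise was normal around 1 mean per gene, with 1 draw per comparison. In the data, 563 genes were called higher and 405 lower in Rspo1 against LGR5-ECD, so recovery there may differ.

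The members and lists were chosen with earlier results of these data known. Values per library are given for members called in any comparison, for the 5 largest log2 changes in each direction per comparison, and for 18 core genes whatever their p; values of Smc4, Nek2, Cenpf, Kif20a, Kif4, Racgap1 and Pttg1 outside that rule were chosen after they were seen. Motifs were searched on both strands of RefSeq promoters (build GRCm38.p6), and overlaps of exons in GENCODE M21. The replicate numbers of Rspo1 and LGR5-ECD were not found to pair the libraries. Alternatives were the pseudocount, the filter, the scaling, the groups fitted, a replicate block and leaving out each library. Python 3.11.15, NumPy 2.4.6, pandas 2.3.3, SciPy 1.17.1 and matplotlib 3.10.9 were used.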

Additional observations from a re-analysis of the deposited data

How the results depend on the processing

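The call of Anln depended on the processing. The members called lower in Rspo1 than in LGR5-ECD were 0 with a pseudocount of 0.1, 0 without a filter, 0 with the replicate block, 3 with a filter at 5 FPKM, 3 with quantile normalization, 3 with only the 2 groups compared and 4 with median-ratio scaling; leaving out 1 library gave 0 to 3. Replicate numbers were not found to pair these libraries, with correlations of -0.019, -0.023 and -0.048 between libraries of the same number. The comparisons with Fc could not be blocked, since the control columns carry no sample number. In them, 0 members were called higher when 1 Rspo1 or LGR5-ECD library was left out. The median log2 change of the members, leaving out 1 library, ran between -0.26 and -0.16 for Rspo1 minus LGR5-ECD, between 0.062 and 0.46 for Rspo1 minus Fc and between 0.34 and 0.62 for LGR5-ECD minus Fc. The members with all Rspo1 libraries above all LGR5-ECD libraries were 0 with median-ratio scaling and 1 to 8 without 1 library, with 8 when Rspo1 replicate 1 was left out. The median log2 change of all genes for Rspo1 minus Fc was 0.16 as reported, 0.011 with median-ratio scaling and 0.01 with quantile normalization, and that of the members 0.25, 0.099 and 0.10. All genes called higher and lower in Rspo1 than in Fc were 77 and 66 as reported, 82 and 120 with median-ratio scaling and 120 and 173 with quantile normalization; in LGR5-ECD against Fc they were 51 and 31, then 44 and 45, then 52 and 56. Other settings moved these counts to 33 and 41 (pseudocount 0.1), 7 and 22 (no filter) and 129 and 88 (only the 2 groups compared) for Rspo1 against Fc, and to 10 and 2, 0 and 4, and 4 and 0 for LGR5-ECD against Fc. Leaving out 1 library gave 8 to 362 higher and 13 to 160 lower in Rspo1 against Fc, and 0 to 153 and 0 to 49 in LGR5-ECD against Fc. For Rspo1 against LGR5-ECD the counts were 563 and 405 as reported, 341 and 280 with the replicate block, and 212 to 600 and 183 to 435 without 1 library; the shares of all genes printed beside the members' counts move with them. Among the 22 members that the rule for values per library picked in each comparison, signs turned under scaling for small changes. Cenpa, Rspo1 minus Fc, was -0.038 with median-ratio scaling and -0.00548 with quantile normalization. For LGR5-ECD minus Fc, Cdc25c was -0.022 and Plk1 -0.044 with median-ratio scaling, and Foxm1 was -0.037 and Plk1 -0.11 with quantile normalization. 
Leaving out 1 library turned these signs among the same 22 members per comparison, given as ranges of the log2 change. For Rspo1 minus LGR5-ECD they were Aurkb -0.35 to 0.087, Bub1b -0.27 to 0.092, Ccnb2 -0.026 to 0.35, Cdc20 -0.28 to 0.059, Mad2l1 -0.31 to 0.022 and Ube2c -0.021 to 0.37. For Rspo1 minus Fc they were Aurka -0.36 to 0.33, Bub1b -0.58 to 0.17, Cdk1 -0.25 to 0.011, Cenpa -0.024 to 0.26, Mad2l1 -0.14 to 0.84 and Plk1 -0.12 to 0.60. For LGR5-ECD minus Fc they were Bub1b -0.50 to 0.25, Bub3 -0.10 to 0.51, Cdc25c -0.29 to 0.41, Incenp -0.13 to 0.14, Mad2l1 -0.012 to 0.97 and Plk1 -0.31 to 0.41. Over all 42 members, the sign turned under at least 1 alternative or left-out library for 16 in Rspo1 minus LGR5-ECD, 18 in Rspo1 minus Fc and 14 in LGR5-ECD minus Fc. The cause of the moves was not tested. FPKM values carry no depth, so the counting error of single values is unknown.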
